A study of Mus musculus with 16 samples.

Results

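Macrophages live in nearly every organ, where they clear dying cells, and they depend on signals through the receptor Csf1r. In the ovary they surround growing follicles and corpora lutea, and in the kidney they form a network around the tubules. Here 10 genes that mark tissue macrophages (Csf1r, Cx3cr1, Adgre1, Cd68, Mrc1, C1qa, C1qb, C1qc, Ly86 and Cd163) were followed through whole ovary and whole kidney. They were chosen by name as markers of these cells, with earlier results of these data known, from the 55359 genes in the count tables, and all 10 passed the filter on low counts in every comparison. In whole-organ RNA, fewer macrophages and less of a transcript per macrophage cannot be told apart. Nor can transcripts of these genes from other cells be told apart from those of macrophages.

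The tissue came from WT female CBAF1 mice 21 days old, sequenced as 16 poly(A) RNA libraries. Mice in the PT-2385 groups received 7.5 mg/kg of PT-2385, an inhibitor of the hypoxia-inducible factor HIF-2α, by intraperitoneal injection in saline every 12 h over 4 days. Vehicle groups received 5% DMSO in saline on the same schedule. Every mouse, vehicle groups included, also received the gonadotropins PMSG (5 IU, 48 h) and then hCG (5 IU), and tissue was taken 13 h after hCG. There were 4 libraries each for PT-2385 ovary, vehicle ovary, PT-2385 kidney and vehicle kidney. The labels do not say whether an ovary library holds 1 animal or a pool, so p-values measure the spread between these libraries.

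Libraries held between 12.7 and 43.3 M read pairs assigned to genes. The ovary identity genes (8 listed, among them Foxl2, Zp3 and Star) were all higher in vehicle ovary than in vehicle kidney, and the 8 kidney identity genes were all lower there. Foxl2, Zp3 and Fshr had no counts in any kidney library. Vehicle ovary replicate 3 stood apart in its nuclear RNAs, whose mean lay 0.93 below that of its group on the log2 scale. Its file name carries the number 5, and that of PT-2385 kidney replicate 3 a flow-cell code found on no other. Vehicle ovary replicate 1 held transcripts of kidney genes, with 1005 counts of Kap, against 4 to 24 in the other vehicle ovary libraries, and its kidney identity genes summed to 76.5 CPM, against 26.6 to 29.6 CPM in those libraries. The 10 macrophage genes together held between 1379 and 5189 read pairs per library, so the rarest of them rest on few counts. The lowest count was 12, for Adgre1 in PT-2385 kidney replicate 2.

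The complement chains C1qa, C1qb and C1qc had the highest levels of the 10 genes in ovary. Their proteins assemble into C1q, the recognition molecule of the classical complement pathway, which tissue macrophages secrete and which binds dying cells. The genes lie beside each other on chromosome 4 of GRCm39, all on the minus strand, with C1qb at chr4:136607440-136613498, C1qc at chr4:136617115-136620376 and C1qa at chr4:136623228-136626114. On the TPM scale, which divides by exon length, C1qa averaged 54.0 ± 5.06 TPM in PT-2385 ovary and 63.9 ± 5.54 TPM in vehicle ovary (SD, n = 4 each). C1qb averaged 45.8 ± 7.11 TPM in PT-2385 ovary and 52.9 ± 8.13 TPM in vehicle ovary. C1qc averaged 39.9 ± 4.73 TPM in PT-2385 ovary and 45.6 ± 5.02 TPM in vehicle ovary. The order C1qa, C1qb, C1qc held in all 8 ovary libraries, although the ranges of neighbours overlapped between libraries. The ratio of C1qa to C1qb was alike in the 4 groups, at 1.19 ± 0.0876 in PT-2385 ovary, 1.22 ± 0.0818 in vehicle ovary, 1.23 ± 0.145 in PT-2385 kidney and 1.23 ± 0.117 in vehicle kidney.

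PU.1, encoded by Spi1, is a transcription factor of macrophages that binds purine-rich DNA with the core GAGGAA. RefSeq promoter windows (GRCm38.p6, from 250 bases before to 50 bases after the start) were available for 7 of the 10 genes, and 4 of these held GAGGAA or its reverse complement TTCCTC on the coding strand. These 4 are shown because they held a match. Capitals mark the matches. Of the 27025 genes with windows of this length, 31.3% had a match, as did 28.3% of all 32851 windows. With only 7 genes looked at, a match in 4 is a description of these sequences and not a sign of a binding site.
C1qb, chr4:136886151-136886450, minus strand: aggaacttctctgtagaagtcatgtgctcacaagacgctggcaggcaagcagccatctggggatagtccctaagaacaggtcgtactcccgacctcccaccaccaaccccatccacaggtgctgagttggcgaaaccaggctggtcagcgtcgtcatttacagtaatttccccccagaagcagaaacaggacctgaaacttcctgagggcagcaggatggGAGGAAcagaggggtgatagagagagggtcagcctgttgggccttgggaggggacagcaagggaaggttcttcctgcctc
C1qc, chr4:136892865-136893164, minus strand: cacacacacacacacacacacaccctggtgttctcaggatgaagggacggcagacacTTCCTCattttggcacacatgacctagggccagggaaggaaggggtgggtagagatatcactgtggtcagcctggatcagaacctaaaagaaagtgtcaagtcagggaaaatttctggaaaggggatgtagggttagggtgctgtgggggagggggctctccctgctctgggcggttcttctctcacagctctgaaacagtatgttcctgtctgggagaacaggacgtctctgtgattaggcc
Cd68, chr11:69666121-69666420, minus strand: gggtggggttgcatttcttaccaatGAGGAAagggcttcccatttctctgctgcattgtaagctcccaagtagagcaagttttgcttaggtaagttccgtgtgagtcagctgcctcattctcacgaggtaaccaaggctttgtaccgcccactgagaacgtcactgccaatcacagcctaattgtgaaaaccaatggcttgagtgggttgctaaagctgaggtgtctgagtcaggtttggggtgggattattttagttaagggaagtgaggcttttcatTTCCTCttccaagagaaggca
Mrc1, chr2:14229164-14229463, plus strand: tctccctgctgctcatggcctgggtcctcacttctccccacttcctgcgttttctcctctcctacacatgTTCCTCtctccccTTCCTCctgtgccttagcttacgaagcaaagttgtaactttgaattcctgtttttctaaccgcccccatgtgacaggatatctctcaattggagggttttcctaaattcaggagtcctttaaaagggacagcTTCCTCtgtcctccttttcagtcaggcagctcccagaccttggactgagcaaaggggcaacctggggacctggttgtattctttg
The match in C1qb began 30 bases before the start and that in C1qc 193 bases before it. Mrc1 had 3 matches, beginning 180, 167 and 35 bases before the start, and Cd68 had 2, beginning 225 bases before the start and at base 30 after it. The windows of Cx3cr1, Ly86 and Cd163 did not hold these letters. Spi1 itself averaged 4.57 ± 0.957 TPM in PT-2385 ovary, 4.06 ± 0.512 TPM in vehicle ovary, 3.69 ± 0.202 TPM in PT-2385 kidney and 3.83 ± 0.384 TPM in vehicle kidney (SD, n = 4 each).

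In vehicle ovary the level per length fell off in the order C1qa, C1qb, C1qc, Cd68, Mrc1, Csf1r, Ly86, Cx3cr1, Adgre1 and Cd163. Cd68, a glycoprotein of macrophage lysosomes, averaged 23.8 ± 2.53 TPM in PT-2385 ovary and 26.1 ± 4.00 TPM in vehicle ovary. Mrc1, the mannose receptor, averaged 13.9 ± 1.43 TPM in PT-2385 ovary and 13.9 ± 2.31 TPM in vehicle ovary. From C1qc down to Ly86 no neighbours in this order overlapped in range in vehicle ovary. Ly86, Cx3cr1 and Adgre1 followed with overlapping ranges, and Cd163, a scavenger receptor for haemoglobin bound to haptoglobin, was lowest at 2.05 ± 0.112 TPM in PT-2385 ovary and 2.18 ± 0.538 TPM in vehicle ovary. In vehicle kidney the order differed at the top, where Csf1r stood above C1qa in all 4 libraries. There Ly86, Mrc1, Cx3cr1, Adgre1 and Cd163 formed the lower end, each overlapping its neighbour.

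**Figure D1:**
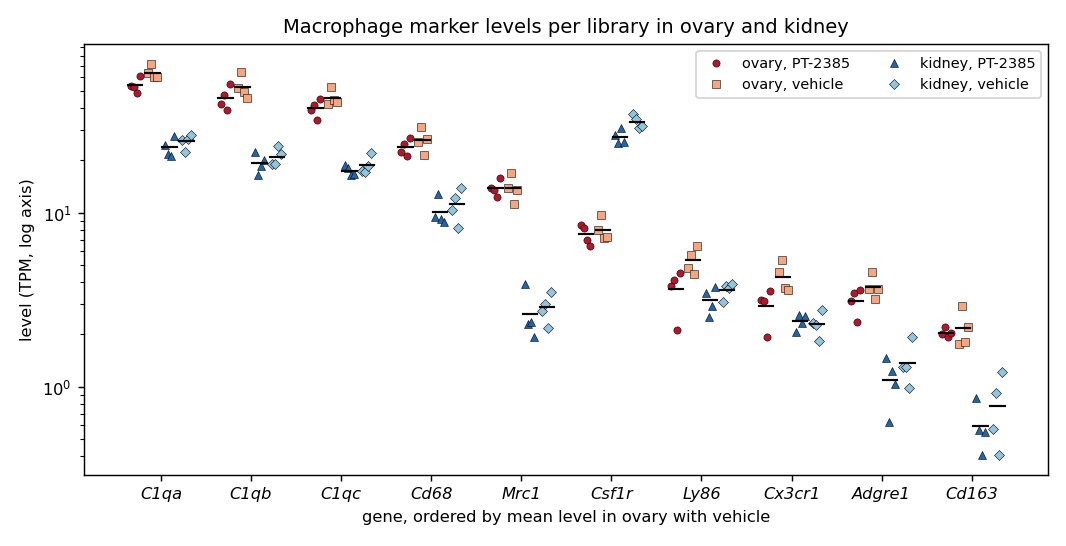
Level of each macrophage marker in every library (points, TPM, log axis) with the group mean (line), for PT-2385 and vehicle ovary and PT-2385 and vehicle kidney. Csf1r is the gene whose kidney points, at 25.2 to 37.0 TPM, lie above its ovary points, at 6.44 to 9.67 TPM.

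The first comparison asked where the genes are higher, in vehicle ovary or in vehicle kidney. Of the 10 genes, 8 were higher in vehicle ovary, 1 was lower (Csf1r) and 1 did not pass the test (Ly86), by the quasi-likelihood test of edgeR with Benjamini-Hochberg adjustment over all genes. Organs differ widely, and 81.6% of the 18923 genes tested passed in this comparison, so the count says little about these genes. By direction, 40.9% of the genes tested were higher in ovary and 40.7% lower. Because columns were used for ovary RNA and Trizol for kidney RNA, organ and RNA isolation cannot be told apart. Without vehicle ovary replicate 1, the library with kidney transcripts, the log2 fold change of Csf1r was -2.53 (adjusted p = 4.17e-10), and of the 8 genes higher in ovary all but Cx3cr1 still passed (edgeR).

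Mrc1 differed most among the genes that were higher in ovary, its log2 fold change being 1.76 (SE 0.149, adjusted p = 1.41e-07, edgeR). Its level was 11.3 to 16.9 TPM in vehicle ovary, against 2.18 to 3.52 TPM in vehicle kidney, with no overlap. The C1q chains moved by nearly the same amount, with log2 fold changes of 0.80 for C1qa, 0.82 for C1qb and 0.76 for C1qc. Cd163 (0.96), Adgre1 (0.93) and Cd68 (0.71) were also higher in vehicle ovary. Adgre1 encodes F4/80, the classical surface marker of mouse macrophages. Cx3cr1, the receptor for the chemokine fractalkine, passed narrowly, with a difference of 0.39 on the log2 scale (SE 0.160, adjusted p = 0.0398, edgeR). The call was lost without vehicle ovary replicate 1 (adjusted p = 0.0595) or 2 (0.0904), or without vehicle kidney replicate 1 (0.0852), 2 (0.0902) or 3 (0.128). In the PT-2385 libraries of both organs its log2 fold change was -0.18 (adjusted p = 0.282). Ly86, which encodes MD-1, the partner of the receptor-like protein Cd180 on the cell surface, had a log2 fold change of 0.05 (± 2 SE: -0.32 to 0.43).

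Csf1r, the receptor tyrosine kinase through which CSF1 and IL-34 maintain macrophages, ran the other way. It had 7.92, 9.67, 7.16 and 7.28 TPM in vehicle ovary, against 37.0, 34.4, 30.7 and 31.3 TPM in vehicle kidney. The highest ovary value lay far below the lowest kidney value. The log2 fold change of ovary over kidney was -2.57 (SE 0.0963, adjusted p = 2.99e-11, edgeR), a ratio of 0.169. The call held under each of the 16 alternatives run, with log2 fold changes between -2.64 and -2.36. The other 9 genes together reached 218 ± 25.7 TPM in vehicle ovary, against 87.6 ± 7.72 TPM in vehicle kidney (SD, n = 4 each). Csf1r thus amounted to 0.0367 ± 0.00114 of the other 9 in vehicle ovary, against 0.384 ± 0.0585 in vehicle kidney. With PT-2385 the same ratio was 0.0403 ± 0.00737 in ovary, against 0.340 ± 0.0466 in kidney. Cd68 stood at 3.26 ± 0.285 times the level of Csf1r in vehicle ovary, against 0.336 ± 0.0821 times in vehicle kidney.

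**Figure D2:**
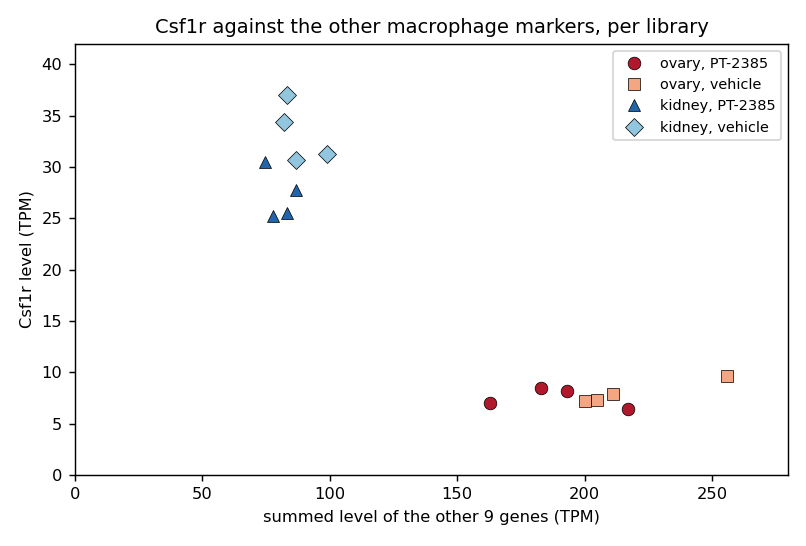
Csf1r (vertical axis, TPM) against the sum of the other 9 macrophage markers (horizontal axis, TPM), with a point for each of the 16 libraries, coloured by organ and treatment. Ovary libraries lie to the right and low (other 9 at 163 to 256 TPM) and kidney libraries to the left and high (74.6 to 98.8 TPM).

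Exons of Csf1r share 17.9% of their bases with exons of Hmgxb3 on the opposite strand, and the counting command names no strand and no option to keep reads that fall on 2 genes. Hmgxb3 was measured at 22.6 ± 1.73 TPM in vehicle ovary and 12.8 ± 1.83 TPM in vehicle kidney (SD, n = 4 each), a log2 fold change of 0.32 (adjusted p = 0.00507, edgeR), which is opposite in sign to that of Csf1r. Its part in the measured level of Csf1r was not tested. Of the other members only Cx3cr1 shares exon bases with another gene model (1.73%). TPM and the fitted fold changes are on different scales between organs. Over the tested genes with a mean TPM above 0 in both vehicle groups, the median log2 ratio was 0.51 in TPM and -0.01 in the fit. Relative to that median, Csf1r was lower in ovary and the 8 called genes were higher on both scales.

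Of 25 further macrophage genes, 17 were higher in vehicle ovary, 3 were lower and 5 did not pass, with a median log2 fold change of 0.92, against 0.78 for the 10 markers and 0.00 for all genes tested. Slc11a1, a metal ion transporter of the phagosome, was the most different of the 25 by p, at a log2 fold change of 3.66 (adjusted p = 3.21e-11, edgeR). Among the ligands, Csf1 was higher in vehicle ovary (log2 fold change 0.73, adjusted p = 7.69e-06), while Il34 (-0.85, adjusted p = 0.000356) and Cx3cl1, which encodes fractalkine (-1.78, adjusted p = 1.72e-10), were lower there (all edgeR). In TPM, Cx3cl1 averaged 26.9 ± 2.34 in vehicle ovary and 65.0 ± 3.76 in vehicle kidney. Cd180, the partner of the Ly86 protein, did not pass (-0.29, adjusted p = 0.228). Il34 and Cd180 share 5.31% and 4.04% of their exon bases with gene models on the opposite strand.

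The second comparison asked whether PT-2385 changed these genes in the ovary. None of the 10 passed the test, with 9 of 10 log2 fold changes below 0 and a median of -0.16, against -0.00 for all genes tested. Of all genes tested in ovary, 49.2% were above 0. The markers varied together between ovary libraries, so their signs are not independent of each other. In ovary 0.0497% of 18125 genes passed (1 higher and 8 lower), that is 0.00552% higher and 0.0441% lower, so that calls were rare for all genes. At an unadjusted p under 0.05 there were 2392 genes, 3 of them members: Cx3cr1, C1qa and Ly86. DESeq2, limma-voom and the other alternatives also called none of the 10 in ovary.

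Cx3cr1 had 5.67, 5.28, 3.35 and 6.08 CPM in PT-2385 ovary, against 7.51, 9.10, 6.24 and 6.21 CPM in vehicle ovary (CPM, counts scaled to library size by TMM within the organ). The groups did not overlap, although the highest PT-2385 value lay close under the lowest vehicle value. Non-overlap with PT-2385 below vehicle occurred in 3.77% of the genes tested in ovary and in 1 of the 10 markers, and non-overlap with PT-2385 above vehicle in 3.18% and in none of the markers. The log2 fold change was -0.51 (SE 0.186, ± 2 SE: -0.88 to -0.14), and the adjusted p of 0.280 did not pass (edgeR). Over the 16 alternatives it lay between -0.62 and -0.35, with an adjusted p between 0.0766 and 0.682.

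Ly86 had 1.71, 1.77, 0.929 and 1.94 CPM in PT-2385 ovary, against 1.97, 2.48, 1.91 and 2.78 CPM in vehicle ovary. PT-2385 replicate 3 was the lowest, and 1 PT-2385 library reached into the vehicle range. The log2 fold change was -0.52 (SE 0.234, adjusted p = 0.375, edgeR), with counts between 23 and 82 per library. C1qa had 22.2, 20.9, 19.5 and 24.1 CPM in PT-2385 ovary, against 23.9, 28.4, 23.5 and 23.9 CPM in vehicle ovary, and 3 of the 4 PT-2385 libraries lay below the lowest vehicle library. Its log2 fold change was -0.20 (SE 0.0893, adjusted p = 0.364, edgeR). C1qb (-0.17), C1qc (-0.15), Adgre1 (-0.22) and Cd68 (-0.09) overlapped between groups and did not pass.

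Csf1r in ovary had 16.5, 15.1, 13.2 and 12.0 CPM with PT-2385, against 14.1, 17.9, 13.2 and 13.6 CPM with vehicle. The groups overlapped, and the log2 fold change was -0.05 (± 2 SE: -0.30 to 0.19). Mrc1 had 29.5, 27.5, 25.6 and 32.3 CPM in PT-2385 ovary, against 26.9, 34.5, 22.8 and 27.8 CPM in vehicle ovary, a log2 fold change of 0.04 (± 2 SE: -0.19 to 0.27). For Cd163 the log2 fold change was -0.05 (± 2 SE: -0.41 to 0.31).

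The size of the shift in ovary rested in part on its highest and its lowest library. Vehicle ovary replicate 2 lay above the vehicle mean in 10 of 10 genes and had the highest summed level, 168.6 CPM. PT-2385 ovary replicate 3 lay above the vehicle mean in 0 of 10 and had the lowest, 111.3 CPM. The sum averaged 128 ± 12.3 CPM in PT-2385 ovary and 140 ± 19.5 CPM in vehicle ovary (SD, n = 4 each). Without vehicle ovary replicate 2 the median log2 fold change of the markers was -0.06, with 4 of 10 above 0, and without PT-2385 ovary replicate 3 it was -0.08. Without vehicle ovary replicate 1, the library with kidney transcripts, it was -0.20, and no marker passed. Without vehicle ovary replicate 3, the library low in nuclear RNAs, 1090 genes passed, none of them a marker, and all 10 markers were below 0.

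**Figure D3:**
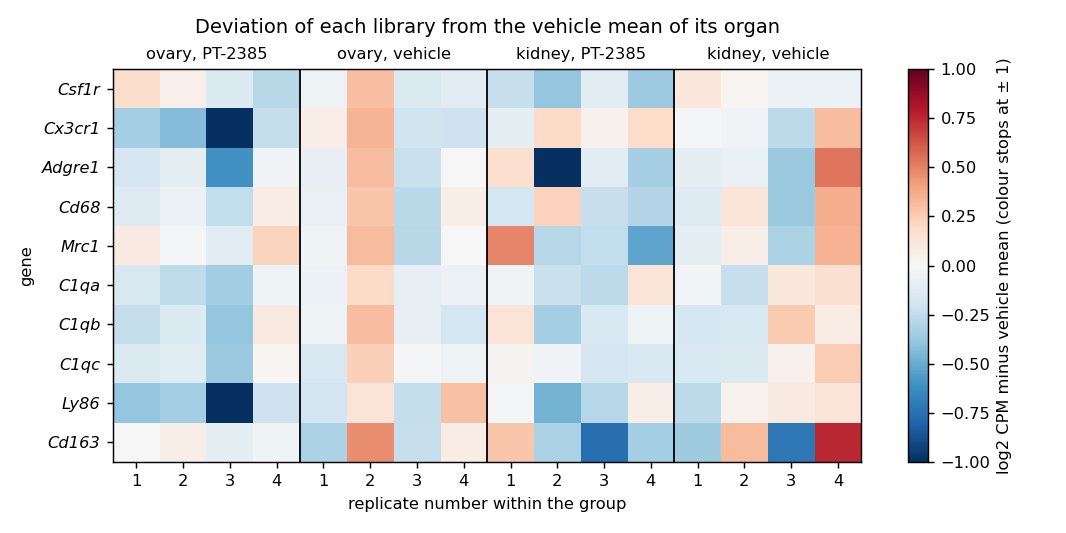
Log2 CPM of each macrophage marker minus the vehicle mean of its organ (colour, red above and blue below), with a column for each of the 16 libraries and a row for each gene. Vehicle ovary replicate 2 is above the vehicle mean in 10 of 10 genes and PT-2385 ovary replicate 3 in 0 of 10.

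Of the 25 further macrophage genes, 1 rose, none fell and 24 did not pass, and 7 of 25 log2 fold changes were above 0 (median -0.14). The gene that rose was Slc11a1, with 41.8, 36.4, 46.9 and 41.3 CPM in PT-2385 ovary, against 23.5, 24.5, 27.4 and 30.5 CPM in vehicle ovary, with no overlap. Its log2 fold change was 0.65 (SE 0.0968, adjusted p = 0.0368, edgeR). The call was lost with limma-voom (adjusted p = 0.0662) and without any 1 of vehicle replicate 1 (0.108) or 4 (0.0664) or PT-2385 replicate 1 (0.221), 2 (0.0672) or 3 (0.205). Ctss, a lysosomal protease (-0.40, adjusted p = 0.207), and Mpeg1, a pore-forming protein of phagocytes (-0.37, adjusted p = 0.239), had the next smallest p and did not pass.

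Among the ligands in ovary, Il34 had 2.24, 3.20, 1.70 and 3.36 CPM with PT-2385, against 3.98, 5.02, 3.24 and 2.85 CPM with vehicle. The groups overlapped, and the log2 fold change was -0.51 (adjusted p = 0.382, edgeR). The ligands Csf1 (0.07) and Cx3cl1 (-0.09), and Cd180, the partner of the Ly86 protein (0.00), did not pass either. The lists for resident macrophage subsets (9 tested), monocytes (9) and chemokines and their receptors (8) each had no gene that passed. Nor did any gene pass in the lists for Cd180 with Toll-like receptors and their partners (9), complement components (14) and haem and iron handling (8).

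Markers of other cells were measured beside the macrophage genes. The 12 endothelial genes summed to 852 to 947 CPM in PT-2385 ovary and 911 to 1140 CPM in vehicle ovary, with 1 of 12 log2 fold changes above 0 and none called. The 14 lymphocyte genes, of which 5 were tested, summed to 5.21 to 5.98 CPM in PT-2385 ovary and 6.57 to 7.57 CPM in vehicle ovary, with 0 of 5 above 0 and none called. The 12 dendritic cell genes summed to 69.7 to 72.0 CPM in PT-2385 ovary and 72.0 to 89.4 CPM in vehicle ovary. The 15 neutrophil genes summed to 16.2 to 20 CPM in PT-2385 ovary and 14.4 to 27.8 CPM in vehicle ovary, with Elane at 0 in both groups. Their part in the values of the macrophage genes was not tested.

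The third comparison asked the same of the kidney, where 5.53% of 17763 genes passed (1.83% higher and 3.7% lower). Of the 10 markers, 1 fell (Csf1r), none rose and 9 did not pass. The median log2 fold change was -0.14, against 0.01 for all genes tested, and 9 of 10 were below 0. Of all genes tested in kidney, 51.5% were above 0. A single call among 10 genes stands beside that background and is no result about the markers as a group.

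Csf1r had 64.0, 57.2, 69.5 and 58.2 CPM in PT-2385 kidney, against 80.5, 76.1, 71.9 and 71.9 CPM in vehicle kidney. All 4 PT-2385 libraries lay below all 4 vehicle libraries, although PT-2385 replicate 3 came close to vehicle replicates 3 and 4. Non-overlap with PT-2385 below vehicle occurred in 7.89% of the genes tested in kidney, and among the markers in Csf1r alone, while 5.37% of genes and none of the markers lay wholly above. The log2 fold change was -0.27 (SE 0.0632, adjusted p = 0.0251, edgeR), a ratio of 0.832. The call was lost without vehicle replicate 2 (adjusted p = 0.0789) or without replicate 2 (0.0538) or 4 (0.0931) of the PT-2385 kidneys, and also when all 16 libraries shared one fit (0.136). It held without PT-2385 replicate 3, the library with the other flow-cell code (log2 fold change -0.33, adjusted p = 0.0249). Hmgxb3, which shares exon bases with Csf1r, averaged 28.0 ± 1.58 CPM in PT-2385 kidney and 30.5 ± 3.49 CPM in vehicle kidney, a log2 fold change of -0.12 (adjusted p = 0.370, edgeR). Its part in the fall of Csf1r was not tested.

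The other 9 markers overlapped between the groups in kidney. Cx3cr1 had 4.41, 5.42, 4.88 and 5.39 CPM in PT-2385 kidney, against 4.69, 4.62, 3.94 and 5.87 CPM in vehicle kidney, a log2 fold change of 0.06 (± 2 SE: -0.20 to 0.32). Cd163 had 1.82, 1.18, 0.848 and 1.16 CPM in PT-2385 kidney, against 1.14, 1.86, 0.875 and 2.56 CPM in vehicle kidney. Its log2 fold change of -0.42 was the furthest from 0 among the kidney markers but also the least precise (SE 0.326, adjusted p = 0.478, edgeR), with counts of 15 to 68 per library. Adgre1 (-0.26, SE 0.233) was similar in its spread, with 0.942 CPM in PT-2385 replicate 2 and 1.57 to 2.25 CPM in the other PT-2385 libraries. The C1q chains changed little, with log2 fold changes of -0.09 for C1qa and C1qb and -0.10 for C1qc, each with an SE between 0.101 and 0.113. Ly86 (-0.16), Cd68 (-0.17) and Mrc1 (-0.12) did not pass. The summed markers without Csf1r averaged 53.3 ± 4.61 CPM in PT-2385 kidney and 57.3 ± 7.05 CPM in vehicle kidney (SD, n = 4 each).

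**Figure D4:**
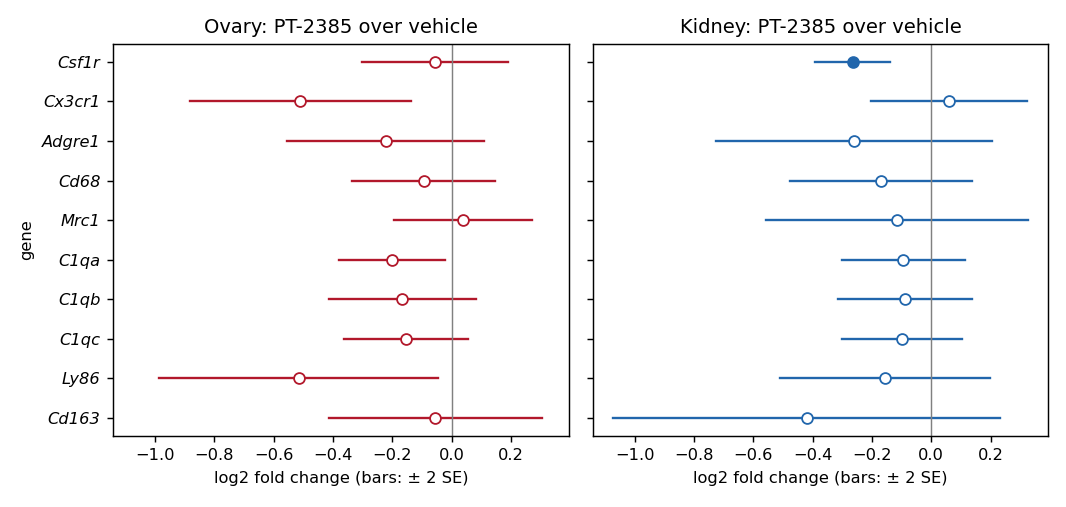
Log2 fold change of PT-2385 over vehicle for each macrophage marker in ovary (left) and kidney (right), with bars of ± 2 SE from edgeR. A filled point marks a gene that passed the test, which is Csf1r in kidney alone, and 9 of 10 points lie below 0 in each organ. Of all genes tested, 49.2% were above 0 in ovary and 51.5% in kidney.

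Of the 25 further macrophage genes, 24 were tested in kidney, where 1 rose, 2 fell and 21 did not pass, with a median log2 fold change of -0.11. Mpeg1 fell, with 6.83, 6.83, 6.05 and 9.09 CPM in PT-2385 kidney, against 10.5, 10.9, 9.58 and 10.1 CPM in vehicle kidney, with no overlap. Its log2 fold change was -0.52 (SE 0.115, adjusted p = 0.0179, edgeR). The call was lost without vehicle replicate 2 (adjusted p = 0.0655), PT-2385 replicate 1 (0.0503) or without PT-2385 replicate 3 (0.0878). Clec4a3, a C-type lectin receptor from a family of similar neighbouring genes, between which reads may be split, fell by 1.09 on the log2 scale (adjusted p = 0.0229), on counts of 3 to 27 per library. Sirpa, an inhibitory receptor for CD47, rose by a log2 fold change of 0.17 (adjusted p = 0.0421), to 74.1 ± 0.596 CPM in PT-2385 kidney, against 65.8 ± 2.81 CPM in vehicle kidney. Among chemokines and their receptors 6 were tested, and 1 fell: Ccr1, a receptor for inflammatory chemokines, by 1.32 (adjusted p = 0.0320), with 0.586 ± 0.226 CPM in PT-2385 kidney and 1.47 ± 0.690 CPM in vehicle kidney (all edgeR, SD, n = 4 each). Neither Clec4a3 nor Ccr1 had an adjusted p with DESeq2 or with the filter of 1 CPM in 4 libraries, so these alternatives did not test their calls. Both had values in 14 of the 16 alternatives, and Ccr1 had counts of 5 to 65 per kidney library. The call of Clec4a3 was lost without vehicle replicate 2 or PT-2385 replicate 1, 3 or 4 (adjusted p 0.0518 to 0.069). The call of Ccr1 was lost without vehicle replicate 1 or 2 or PT-2385 replicate 2, 3 or 4 (0.0567 to 0.134). That of Sirpa held only when vehicle replicate 1 or 3 was the library left out (0.0642 to 0.134 without any other), and it was lost without a filter (0.0534) and, like that of Mpeg1 (0.0501), when all 16 libraries shared one fit (0.230).

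**Figure D5:**
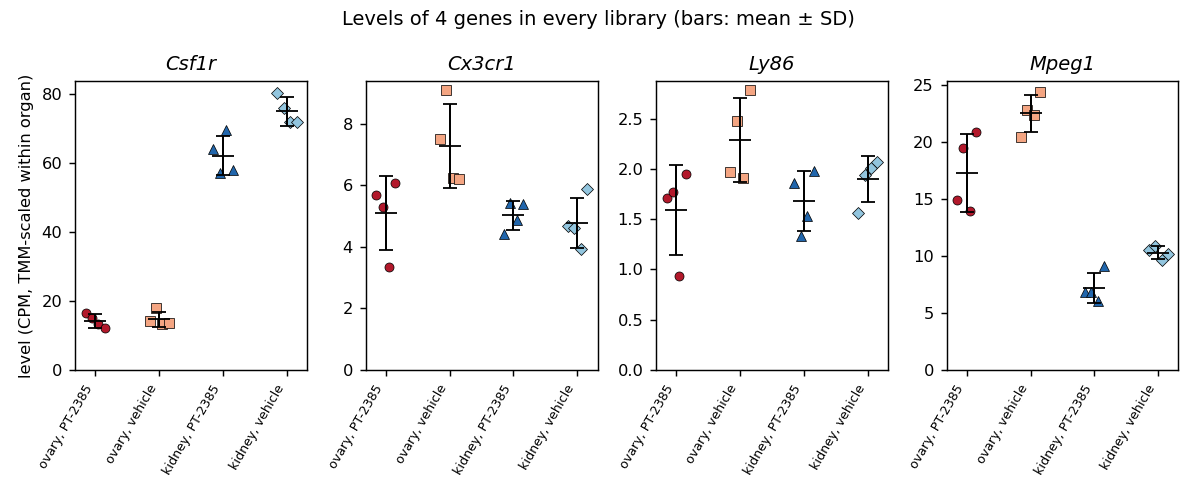
Level of Csf1r, Cx3cr1, Ly86 and Mpeg1 in every library (points, CPM after TMM scaling within the organ) with mean ± SD, for PT-2385 and vehicle ovary and PT-2385 and vehicle kidney. PT-2385 and vehicle kidney do not overlap for Csf1r and Mpeg1, and PT-2385 and vehicle ovary do not overlap for Cx3cr1.

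The ligands and Cd180 were not called in kidney, with log2 fold changes of -0.01 for Csf1, 0.13 for Il34, 0.04 for Cx3cl1 and -0.11 for Cd180. Csf1, the ligand of Csf1r, averaged 18.7 ± 0.661 CPM in PT-2385 kidney and 18.9 ± 2.08 CPM in vehicle kidney. Of 15 complement genes 1 fell, the alternative pathway factor Cfb (-0.54, adjusted p = 0.0251, with 81.6% of its exon bases shared with another gene model), and 1 rose, Cd59a, an inhibitor of the membrane attack complex (0.20, adjusted p = 0.0297, both edgeR). Both calls were lost when all 16 libraries shared one fit (0.0994 for Cfb and 0.340 for Cd59a) and without any 1 of vehicle replicate 2 or PT-2385 replicates 1, 3 and 4, and that of Cfb also without vehicle replicate 1 (0.0503 to 0.107 for Cfb and 0.0727 to 0.108 for Cd59a). The lists for resident subsets (7 tested), transcription factors and ligands (10) and monocytes (8) had no gene that passed in kidney. Nor did those for Cd180 with Toll-like receptors and their partners (9) and for haem and iron handling (8).

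Other cell types were measured in kidney as well. Dendritic cell genes (12) summed to 170 to 179 CPM in PT-2385 kidney and 177 to 210 CPM in vehicle kidney. Of the 10 tested, 2 were above 0 and none was called (lowest adjusted p = 0.0615, edgeR). Lymphocyte genes (14) summed to 5.34 to 8.09 CPM with PT-2385 and 5.41 to 7.57 CPM with vehicle. For neutrophil genes (15) the sums were 5.1 to 6.44 CPM and 5.26 to 6.81 CPM. The 12 endothelial genes summed to 832 to 940 CPM in PT-2385 kidney and 808 to 864 CPM in vehicle kidney, with 12 of 12 log2 fold changes above 0 and none called. The 10 monocyte genes summed to 263 to 310 CPM in PT-2385 kidney and 315 to 503 CPM in vehicle kidney, with 1 of the 8 tested above 0 and none called. Most of that sum came from Ace (88.0 to 98.6 CPM in PT-2385 kidney and 119 to 189 CPM in vehicle kidney, adjusted p = 0.0551, edgeR) and Fn1, and the other 8 overlapped, at 33.3 to 50.2 CPM in PT-2385 kidney and 37.1 to 53.1 CPM in vehicle kidney. The 5 nuclear RNAs summed to 3474 to 3607 CPM in PT-2385 kidney and 3113 to 3387 CPM in vehicle kidney. Of the 8 kidney identity genes 1 fell, Cubn, an endocytic receptor of the proximal tubule (-0.44, adjusted p = 0.0288, edgeR), a call lost without vehicle replicate 2 or PT-2385 replicate 1, 3 or 4 (0.0697 to 0.101). The part of these genes in the fall of Csf1r was not tested.

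The response to PT-2385 was also compared between organs directly. The difference between the log2 fold changes of ovary and of kidney, tested over all 16 libraries, passed for 0.19% of 19977 genes (0.16% higher and 0.03% lower) and for none of the 10 markers (edgeR; 1 marker and 2397 genes had an unadjusted p under 0.05, and DESeq2 and limma-voom called no marker). Cx3cr1 had the smallest p, with a difference of -0.55 (SE 0.237, adjusted p = 0.357). For Csf1r the difference was 0.23 (± 2 SE: -0.05 to 0.51, adjusted p = 0.540), so that its fall in kidney and its value in ovary were not shown to differ. Slc11a1 had a difference of 0.72 (adjusted p = 0.130) and Mpeg1 of 0.16 (adjusted p = 0.776). Slc11a1 passed with DESeq2 (adjusted p = 0.0437) and without vehicle ovary replicate 3 (0.0398).

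The markers varied together between ovaries and less so between kidneys. After each library's level was set against its group mean, all 45 pairs of markers were positively correlated over the 8 ovary libraries, with a median Pearson coefficient of 0.751. Cd68 and Mrc1 were the most alike (0.954) and Csf1r and Ly86 the least (0.203). Over the 8 kidney libraries 32 of 45 pairs were positive, with a median of 0.301. These coefficients describe libraries that share depth and tissue makeup, and carry no test. In ovary the markers deviated most in vehicle replicate 2 (mean 0.288 on the log2 scale) and in PT-2385 replicate 3 (-0.27). The share of positive pairs over all genes was not computed. Among the 12042 genes compared, some outside the list also followed the mean of the markers in ovary, such as Naxe (0.951) and Acot11 (0.95). Covariation in ovary is therefore not particular to the markers. Vehicle ovary replicate 2 was also above its group mean in endothelial genes (0.251) and nuclear RNAs (0.487), and below it in monocyte genes (-0.205). Set against the mean of the other 9, Adgre1 followed most closely in ovary (0.98), while Csf1r followed least in both organs (0.465 in ovary and -0.134 in kidney).

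The genes outside the list whose deviations were most like the mean of the markers over all 16 libraries were Lyz2 (Pearson 0.881), Naxe (0.868), Stom (0.859), Acot11 (0.836), Rftn2 (0.834), Mgmt (0.832), Pik3c2b (0.828) and Ptprc (0.824), of 12042 genes compared. Lyz2 encodes the lysozyme of macrophages and Ptprc encodes CD45, present on all white blood cells. Lyz2 had 42.7, 53.5, 39.6 and 50.7 CPM in PT-2385 ovary, against 42.7, 56.5, 38.9 and 45.2 CPM in vehicle ovary. The median coefficient was 0.563 for the 13 further macrophage genes compared, against -0.04 for all genes. The 8 names depend on which libraries enter: 5 were among the 8 most alike by Spearman's coefficient, 2 in kidney alone and 0 in ovary alone.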

How the data were processed

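Whole ovary and whole kidney of 4 groups were measured by RNA sequencing with a stranded poly(A) library kit, per the labels' protocols. The deposited values are raw read pair counts per gene, made by the authors with featureCounts 2.0.6 over exons with the GENCODE vM27 basic annotation, without a strand option, per the file headers. The submitters' processing notes name FastQC and STAR with the build GRCm39; versions of both are not given in the sources used here. Without a strand option, a read on exons of overlapping genes cannot be given to 1 strand.

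Symbols came from GENCODE by identifier (52083 of 55359, 94.1%). Counts without a symbol made up 0.681% to 3.14% of a library. Counts were tested with edgeR 4.0.16 (quasi-likelihood, robust, TMM scaling, R 4.3.3) after filterByExpr (count 10, total 15), each organ alone, the interaction over 16 libraries and the organs over the 8 vehicle libraries. Adjustment was by Benjamini-Hochberg over all genes tested and called under 0.05. DESeq2 1.42.0 and limma-voom (limma 3.58.1) were alternatives, with other scalings and filters, a block on replicate number and each library left out. The tests were tested on simulated data. CPM follow TMM scaling within an organ; TPM use exon length. Likeness compared log2 CPM (prior count 2) minus group means, over genes of at least 2 CPM. SD and n refer to libraries. Figures used matplotlib 3.10.9.

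The members and lists were chosen with earlier results of these data known. Genes named are the 10 members, members of the other lists that passed (at most 4 a list, otherwise at most 2 as values), the 8 genes most alike, and Csf1, Il34, Cx3cl1 and Cd180; Spi1, Hmgxb3 and the genes named as examples of a list were added for the text. Replicate numbers were not used as pairs in the main tests. Same-numbered libraries correlated at -0.172 to 0.236 in ovary, -0.064 to 0.0522 in kidney and -0.0261 to 0.11 between vehicle ovary and vehicle kidney. These values do not settle whether same-numbered libraries are paired.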

Additional observations from a re-analysis of the deposited data

Results flagged for a closer look

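C1qa in vehicle ovary replicate 2, at 28.4 CPM, stood apart from the other 3 vehicle ovary libraries, which lay between 23.5 and 23.9 CPM. It was 1 of 40 combinations of gene and group looked at, and chance flags about 1 in 20. The same library had the highest level of Cx3cr1, Mrc1 and the summed markers in ovary.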

How the results depend on the processing

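None of the 10 markers was called in ovary or in the interaction under any of the alternatives run, and Csf1r stayed lower in ovary than in kidney in all. The numbers of genes called moved more. In ovary 9 genes passed, against 330 without a filter, 322 with DESeq2, 3 with limma-voom, 395 with a replicate block, 325 with all 16 libraries in one fit and 0 to 1090 when a library was left out. In kidney 982 passed, against 1761 without a filter, 286 with all 16 libraries in one fit (then 0 markers) and 240 to 1370 when a library was left out (then 0 to 1 markers). For the interaction 38 passed, against 20 with RLE scaling, 167 without a filter, 304 with DESeq2, 263 with a replicate block, 378 without both libraries with deviating file names and 0 to 813 when a library was left out. Whether replicate numbers pair the libraries is not settled. In each organ 4 of 8 libraries correlated best with their own number, as did 4 of 8 between vehicle ovary and vehicle kidney. The main tests took all libraries as independent, and with the block 1274 genes passed in kidney. The block changed no call of a marker (Csf1r in kidney, adjusted p = 0.0133).

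Directions turned for some values: Cd180 in ovary (0.00) was -0.0125 with upper-quartile scaling, -0.000351 without a filter, -0.00456 with the stricter filter and -0.00295 with the block, Cd68 in the interaction was -0.0162 without both deviating libraries, and in the PT-2385 libraries the organ difference was -0.181 for Cx3cr1, which was called at 0.39 in the vehicle libraries, and -0.298 for Ly86. Leaving out a library gave 28 reversals among 632 gene values. In ovary the ranges were -0.157 to 0.127 for Cd163, -0.129 to 0.0823 for Cd180, -0.178 to 0.00687 for Cd68, -0.128 to 0.0543 for Csf1r and -0.0483 to 0.154 for Mrc1. In kidney they were -0.166 to 0.00165 for C1qb, -0.223 to 0.089 for Cd180, -0.0578 to 0.0636 for Csf1, -0.0179 to 0.173 for Cx3cr1 and -0.374 to 0.0124 for Mrc1. In the interaction they were -0.163 to 0.198 for Adgre1, -0.155 to 0.0545 for C1qb, -0.132 to 0.0437 for C1qc and -0.0439 to 0.2 for Cd68, and for Ly86 between organs -0.0401 to 0.15. The genes most alike shared 5 of 8 by Spearman, 0 in ovary alone and 2 in kidney alone. The causes were not tested. Counts under 100, for Ly86 in all 16 libraries and for Cd163, Adgre1 and Cx3cr1 in several, limit what can be seen of these genes.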
